A study of Homo sapiens with 2 samples.

Results

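The genes described here are 9 members of the NOTCH pathway, chosen by name: the receptors NOTCH1 and NOTCH2, the cell surface proteases ADAM10 and ADAM17, the γ-secretase subunits PSENEN, NCSTN and APH1A, and RBPJ and MAML1 of the nuclear complex. All 9 were found among the 11619 genes listed. The study asked what the long non-coding RNA CRNDE does in acute promyelocytic leukemia (APL), and RNA sequencing was used to look for transcripts that change when CRNDE is depleted. NB4, a human APL cell line carrying the PML/RARα fusion, was infected with a lentiviral vector (pLVX-shRNA2) that encoded either an shRNA against CRNDE (sh-CRNDE) or an irrelevant control shRNA (sh-Control). RNA was taken on day 3, from 1 library per group. In both groups the cells had been infected and carried the same vector, the fluorescent protein ZsGreen1 served as the selection marker, and the sources used here do not say which CRNDE shRNA the sequenced cells received. With 1 library per group, none of the differences below could be checked in a replicate, and neither a p-value nor an SD is given.

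NOTCH receptors are cut by a furin-type convertase during maturation and sit in the plasma membrane as heterodimers. Binding of a Jagged or Delta-like ligand on a neighbouring cell exposes a site that an ADAM protease cleaves, after which γ-secretase releases the intracellular domain. That domain enters the nucleus, where it binds RBPJ and a Mastermind-like coactivator and turns on target genes. Without it RBPJ recruits corepressors. The pathway is best known in blood cells for T-cell commitment (NOTCH1) and marginal zone B cells (NOTCH2), and it also acts in myeloid cells.

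NOTCH2 was examined in the study as a target of the miR-181 family, small RNAs that pair with messages through their seed. The study reported miR-181 binding signals on NOTCH2 from a CLIP-seq database, and lower NOTCH2 RNA after miR-181 mimics in NB4 cells. The mature sequences are shown with seed bases 2 to 8 in capitals. They were taken from RefSeq (GRCh38.p14), where all 4 names matched, and the 4 share a single seed.
hsa-miR-181a-5p: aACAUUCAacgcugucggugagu
hsa-miR-181b-5p: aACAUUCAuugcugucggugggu
hsa-miR-181c-5p: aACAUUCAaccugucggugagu
hsa-miR-181d-5p: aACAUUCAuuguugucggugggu

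The letters that pair with this seed, TGAATGT, were looked for in the 3′ UTR of the canonical transcript of each member (GENCODE release 44, GRCh38, sense strand). They occurred once each in NOTCH2, ADAM10 and ADAM17 and in none of the other 6 members. The 30 bases around each match are shown 5′ to 3′ on the transcript strand, which is the minus strand for all 3 genes, with the match in capitals.
NOTCH2, chr1:119912321-119912350: aaccaatacatTGAATGTatgatgactatt
ADAM10, chr15:58592689-58592718: atgcagccacaTGAATGTattagaaacaat
ADAM17, chr2:9489123-9489152: acaggttgtttTGAATGTgatgagccagcc

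The match begins at base 2967 of the 3753-base 3′ UTR of NOTCH2. It begins at base 4840 of 8738 in ADAM10 and at base 1036 of 1691 in ADAM17. In NOTCH2 and ADAM10 the base after the match is A, the letter that extends a seed match in the longest class of miRNA sites, whereas in ADAM17 it is G.

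The libraries hold FPKM values (sequenced fragments divided by transcript length and by the mapped fragments of the library), so that levels of different genes can be set side by side. Read counts and hence depth are unknown, and no interval for counting error could be made. The median gene was at 3.95 FPKM in sh-Control against 3.89 FPKM in sh-CRNDE. The summed FPKM differed more, 141217 in sh-Control against 170373 in sh-CRNDE, where the mitochondrial rRNA gene MT-RNR2 alone made up 16.2%. The change of a gene is log2(FPKM + 1) in sh-CRNDE minus that in sh-Control, and a gene was counted as lower or higher when its change passed 1.5-fold (0.58 on this scale), the threshold of the study. The median change over all 11619 genes was -0.01, with quartiles at -0.26 and 0.23. The targeted transcript, CRNDE (ENSG00000245694), fell from 5.92 to 1.85 FPKM in the depleted cells, with a change of -1.28. Of 9 markers of promyelocytes, 8 were listed, led by MPO (1135 FPKM in sh-Control against 738 FPKM in sh-CRNDE). Of these 8, 4 were lower past 1.5-fold (MPO, CTSG, PRTN3 and AZU1). Only CEBPE was higher, rising from 0.748 to 8.75 FPKM, a change of 2.48. The shares over all genes were 8.83% lower and 8.38% higher, and no test of the list against them was made. The summed FPKM of the 8 fell from 1455 to 873 in the depleted cells, but MPO made up most of both sums. The part of these markers in the results below was not tested. Of the markers of other cells, 3 of 5 for B cells, 1 of 5 for T cells and 1 of 5 for epithelium were listed, all below 5 FPKM in both libraries, and none of 5 for erythroid cells and none of 4 for fibroblasts.

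Among the 9 members, NOTCH1, NOTCH2 and ADAM17 were lower in sh-CRNDE, RBPJ was higher, and ADAM10, PSENEN, NCSTN, APH1A and MAML1 did not pass the threshold. Over all genes 17.2% passed 1.5-fold, 8.83% lower and 8.38% higher, against 3 lower and 1 higher among the 9 members. The 3 lower members are all genes that the study named from these same libraries, so their direction is not independent evidence. The median change of the members was -0.11. The members that passed lay on both sides. Both receptors and 1 protease fell, the 3 γ-secretase subunits stayed between changes of -0.18 and 0.06, and the DNA-binding factor rose. In a bulk RNA measurement, fewer cells expressing a gene and less RNA per cell cannot be told apart.

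**Figure D1:**
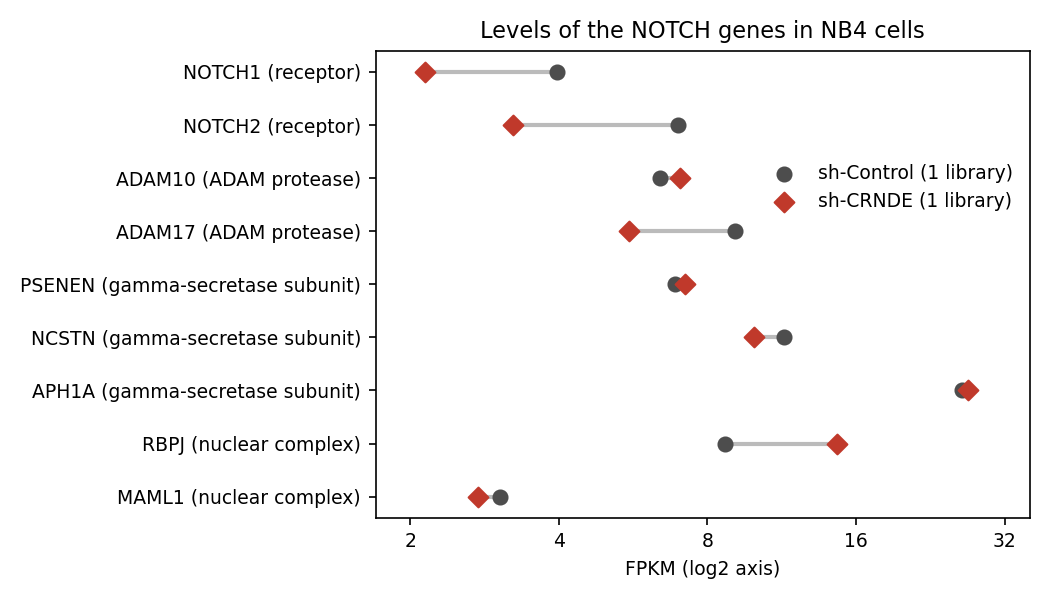
FPKM of each of the 9 members (rows, with role) on a log2 axis in the sh-Control library (grey circles) and the sh-CRNDE library (red diamonds), 1 library each. The diamonds of NOTCH1, NOTCH2 and ADAM17 lie left of their circles, that of RBPJ lies right, and the symbols of the other 5 genes nearly touch.

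In sh-Control, the members lay between 3.03 FPKM for MAML1 and 26.3 FPKM for APH1A. From high to low the order was APH1A, NCSTN, ADAM17, RBPJ, NOTCH2, PSENEN, ADAM10, NOTCH1 and MAML1. In sh-CRNDE the order was APH1A, RBPJ, NCSTN, PSENEN, ADAM10, ADAM17, NOTCH2, MAML1 and NOTCH1. RBPJ thus went from place 4 to place 2, ADAM17 from 3 to 6, NOTCH2 from 5 to 7, and NOTCH1 from 8 to 9, the lowest. Without replicates it cannot be said which neighbours in either order differ beyond their spread.

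NOTCH2 (ENSG00000134250, chr1:119911553-120100779, minus strand, 34 exons) was the more abundant receptor in both libraries. Its level was 6.97 FPKM in sh-Control against 3.23 FPKM in sh-CRNDE, a loss of 53.6% of the FPKM value. It fell by 0.91 on the log2(FPKM + 1) scale, the lowest change of the 9, and its FPKM ratio of 0.464 is past 2-fold although the change with the pseudocount is not.

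NOTCH1 (ENSG00000148400, chr9:136494433-136546048, minus strand, 34 exons) measured 3.97 FPKM in sh-Control against 2.14 FPKM in sh-CRNDE, which is 46.0% less. Its change was -0.66, and 7.10% of all genes had a lower one. The FPKM of both receptors together was 10.9 in sh-Control and 5.37 in sh-CRNDE, or 49.2% of the control value. NOTCH2 stood at 1.76 times NOTCH1 in sh-Control and at 1.51 times in sh-CRNDE, so the order of the receptors was the same in both libraries. NOTCH3 and NOTCH4 were not among the listed genes, and every listed gene is above 0.5 FPKM in at least 1 library.

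The base composition of the transcripts moved with the change across all genes, and this touches NOTCH1 and RBPJ. Sorted by the GC content of the canonical transcript, the third of genes with the lowest GC (up to 43.7%) had a median change of 0.15, and the third with the highest GC (from 53.6%) one of -0.20. The share of genes called lower was 5.84% in the first and 13.2% in the second. The NOTCH1 transcript is 63.5% GC, and with the median of its GC class taken off (GC subtraction) its change was -0.40, no longer past 1.5-fold. The NOTCH2 transcript is 49.4% GC, and its change after the same step was -0.93.

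Part of NOTCH2 was duplicated in the human genome, which can share reads between copies. Of the 50-base windows of its transcript, 4.82% also occur in transcripts of 6 other genes, 2 of which are listed. The partial copy given as NOTCH2NL (ENSG00000264343) was at 0.918 FPKM in sh-Control against 0.542 FPKM in sh-CRNDE. The other listed gene, NBPF26 (ENSG00000273136), which shares 2.80% of the windows, was at 3.33 FPKM in sh-Control against 2.69 FPKM in sh-CRNDE, and the latter is close to NOTCH2 in that library. The NOTCH2 values are uncertain to the extent that reads were split among these genes. None of the windows of NOTCH1, NCSTN, APH1A or MAML1 was shared. By qRT-PCR the study also reported lower NOTCH2 after CRNDE knockdown in NB4 cells. The pair of NOTCH2 primers that the study used for qRT-PCR is shown because of these copies. The primers match exons 12 and 13 of NOTCH2, at 1 place each, and no transcript of another gene.
NOTCH2 forward primer, chr1:119959398-119959421, minus strand: ACAGTTGTGTCTGCTCACCAGGAT
NOTCH2 reverse primer, chr1:119955144-119955167, plus strand: GCGGAAACCATTCACACCGTTGAT

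The genes whose levels in the libraries were most like those of NOTCH1, by Euclidean distance in log2(FPKM + 1) over the 2 libraries and leaving out genes under 1 FPKM in either, were TRAF4 (distance 0.0088), PER1 (0.022) and PANK1 (0.024). Those most like NOTCH2 were CDKN2AIP (0.069), RP11-977G19.5 (0.072) and KCNH2 (0.077). Over only 2 libraries such likeness says no more than that the FPKM values are close.

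ADAM17 (ENSG00000151694, chr2:9488486-9556732, minus strand, 19 exons), the sheddase that also releases TNF and EGF receptor ligands, was at 9.09 FPKM in sh-Control against 5.55 FPKM in sh-CRNDE. It fell by 0.62, which lies just past the threshold, and 7.78% of all genes had a lower change. ADAM10 (ENSG00000137845, chr15:58588809-58749791, minus strand, 16 exons), the protease that makes the ligand-dependent cut in NOTCH1, was at 6.42 FPKM in sh-Control against 7.03 FPKM in sh-CRNDE, a change of 0.11. The order of the proteases was opposite in the libraries, with ADAM17 at 1.42 times ADAM10 in sh-Control and at 0.790 times in sh-CRNDE. Their summed FPKM was 15.5 in sh-Control and 12.6 in sh-CRNDE.

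Both protease transcripts are poor in GC (42.1% for ADAM17 and 37.5% for ADAM10), and GC subtraction moved the change of ADAM17 to -0.73 and that of ADAM10 to -0.06, with the sign turned. ADAM17 also overlaps IAH1, an esterase gene on the opposite strand, with which it shares 1257 exon bases, and ADAM10 shares 136 with an opposite lncRNA gene (ENSG00000259250). The library kit does not mark strand, so reads there cannot be told apart. IAH1 measured 0.0893 FPKM in sh-Control against 0.801 FPKM in sh-CRNDE, a change of 0.73, opposite in direction to that of ADAM17. The lncRNA gene measured 0.761 against 0.679 FPKM. Each was listed far below its partner, but these values depend on how the shared reads were assigned, which was not tested. Of the windows of the ADAM17 transcript, 27.8% also occur in transcripts of IAH1. The ADAM17 values are uncertain to that extent.

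The γ-secretase subunits did not pass the threshold. APH1A (ENSG00000117362, chr1:150265399-150269580, minus strand, 7 exons), the scaffold subunit, was the most abundant member in both libraries, at 26.3 FPKM in sh-Control against 27.0 FPKM in sh-CRNDE, a change of 0.04. NCSTN (ENSG00000162736, chr1:160343294-160358952, plus strand, 17 exons), which encodes nicastrin, the subunit with the large extracellular domain, was at 11.4 and 9.96 FPKM, a change of -0.18. PSENEN (ENSG00000205155, chr19:35745600-35747519, plus strand, 4 exons), which encodes PEN-2, was at 6.87 and 7.21 FPKM, a change of 0.06. The summed FPKM of the 3 was 44.6 in sh-Control and 44.2 in sh-CRNDE, or 99.1%. PSENEN shares 285 exon bases with a gene on its strand (ENSG00000188223), which had 1.27 FPKM in sh-Control but is listed at 0 in the other library. It also shares 257 with an opposite lncRNA gene (ENSG00000267439) that is not listed. Of the 50-base windows of PSENEN, 41.6% occur in transcripts of 3 other genes, the largest share of any member. The PSENEN value is uncertain to that extent.

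Further subunits of the complex were taken from a list of 53 other pathway genes. PSEN2 was at 1.94 FPKM in sh-Control against 1.45 FPKM in sh-CRNDE and did not pass the threshold. APH1B, which can take the place of APH1A, did pass it. It was at 6.27 FPKM in sh-Control against 1.55 FPKM in sh-CRNDE, and it fell by 1.51, more than any member. APH1A was 4.19 times APH1B in sh-Control and 17.4 times in sh-CRNDE, while the FPKM of the 2 together went from 32.5 to 28.5.

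RBPJ (ENSG00000168214, chr4:26163455-26435131, plus strand, 11 exons), the DNA-binding factor through which all NOTCH receptors act, was at 8.69 FPKM in sh-Control against 14.6 FPKM in sh-CRNDE. It rose by 0.69, and 6.30% of all genes had a higher change. Set against the receptors, RBPJ was 1.25 times NOTCH2 in sh-Control and 4.53 times in sh-CRNDE. Its transcript is among the AT-rich ones (37.2% GC), and with genes of similar GC as the reference its change was 0.51, under the threshold. MAML1 (ENSG00000161021, chr5:179732822-179777283, plus strand, 5 exons), the Mastermind-like coactivator, was at 3.03 and 2.74 FPKM, a change of -0.11 that became 0.03 with GC subtraction.

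**Figure D2:**
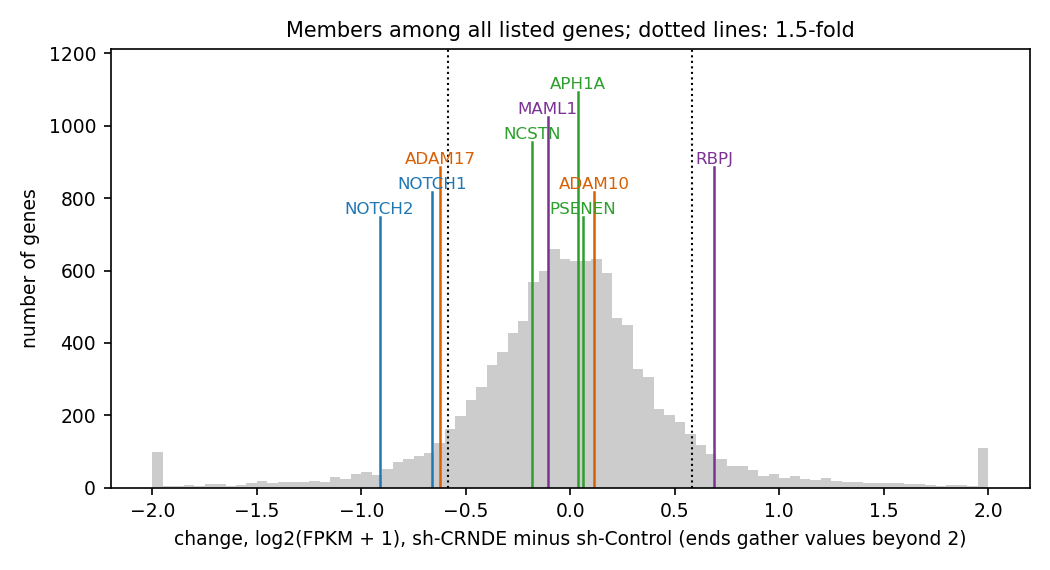
Number of genes (vertical axis) by change in log2(FPKM + 1), sh-CRNDE minus sh-Control (horizontal axis, values beyond 2 gathered at the ends), for all 11619 genes, with vertical lines for the 9 members coloured by role and dotted lines at 1.5-fold. NOTCH2, NOTCH1 and ADAM17 lie left of the lower dotted line, RBPJ lies right of the upper one, and the other 5 lie in the central peak.

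Of the 53 further pathway genes 40 were listed, with a median change of 0.01. Of these, 3 were higher, 3 lower and 34 not past 1.5-fold. With 8.38% of all genes higher and 8.83% lower, the list as a whole did not pass more often than other genes. Of 6 ligands only JAG1 and DLL1 were listed, at 3.53 and 4.26 FPKM in sh-Control, and neither passed the threshold. The same held for the 5 listed genes of receptor maturation, which include the convertase FURIN and the fucosyltransferase POFUT1, with changes between -0.37 and 0.40. Of 9 coactivators, CCNC (cyclin C, which with CDK8 phosphorylates the NOTCH intracellular domain) rose from 7.06 to 19.2 FPKM, a change of 1.33. SNW1, also called SKIP, rose from 25.7 to 42.9 FPKM (0.72), and the acetyltransferase EP300 fell from 8.38 to 5.18 FPKM (-0.60). Coactivators thus passed in both directions, and the other 6, MAML2 and MAML3 among them, did not pass.

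Of 12 listed corepressors, CIR1, which joins RBPJ to histone deacetylases, rose from 4.18 to 7.52 FPKM (0.72), and the other 11 lay between -0.40 and 0.28. With GC subtraction CIR1 was at 0.55 and no longer past the threshold. Of 9 listed genes of endocytosis and turnover, DTX3L, a ubiquitin ligase of the Deltex family, fell from 4.62 to 2.25 FPKM (-0.79). The summed FPKM of the corepressors was 113 in both libraries, and that of the endocytosis and turnover genes was 43.9 in sh-Control and 43.8 in sh-CRNDE.

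**Figure D3:**
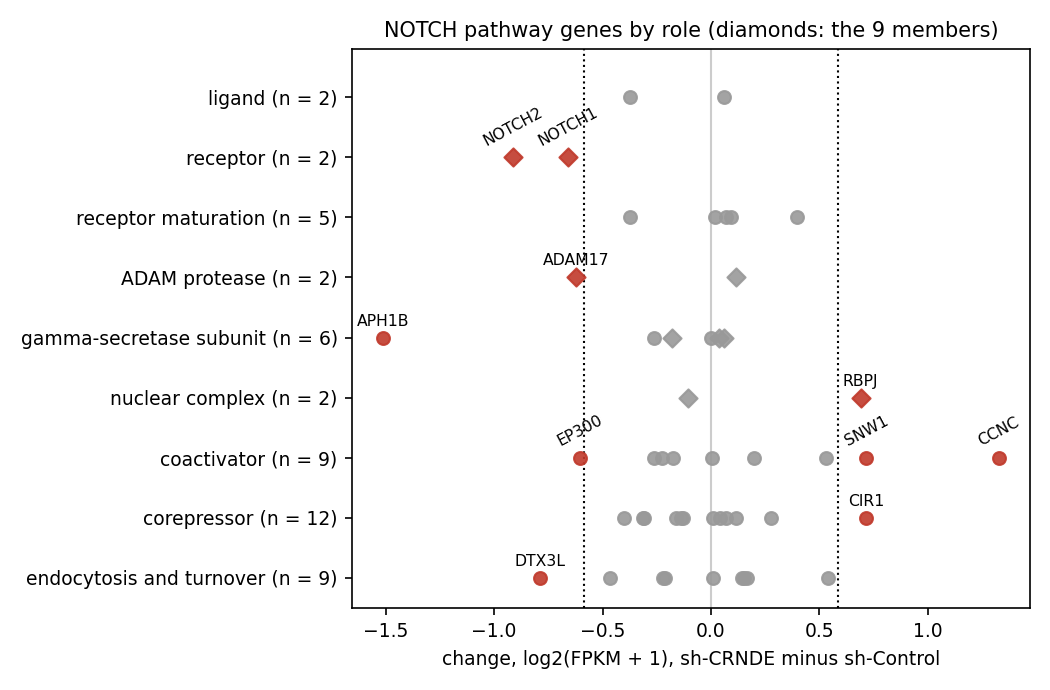
Change in log2(FPKM + 1), sh-CRNDE minus sh-Control (horizontal axis), of every listed pathway gene, in rows by role with the number of genes, members as diamonds and other genes as circles, in red where past the dotted 1.5-fold lines. The 2 receptors are the only row in which every gene is past the threshold, and APH1B lies furthest to the left of all.

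Of 19 genes on a list of NOTCH targets in blood or other tissues and HES relatives, 6 were listed. The classical target HES1, a transcriptional repressor, was at 2.13 FPKM in sh-Control against 2.54 FPKM in sh-CRNDE, a change of 0.18. HES6, a relative that opposes HES1, fell from 14.5 to 6.35 FPKM (-1.07). MYC fell from 43.8 to 26.9 FPKM (-0.68) and the growth factor receptor IGF1R from 6.35 to 3.32 FPKM (-0.77). CCND1, cyclin D1, rose from 2.98 to 8.56 FPKM (1.26), and TRIB2 was at 1.13 and 0.917 FPKM. The 6 listed genes therefore lay on both sides, 3 lower and 1 higher, and HES1 itself was not past the threshold. Over all genes 8.83% were lower and 8.38% higher, and a list of 6 is too short to be weighed against these shares. Whether HES6 responds to NOTCH in these cells was not tested. The HEY genes, HES5 and NRARP, other direct targets, were not listed. MYC and IGF1R were also among the genes the study named from these libraries, so their direction is not independent evidence, and they have many inputs besides NOTCH.

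The seed matches shown above are set here beside the changes of the genes, and a link between matches and changes was not tested. Of the 3 members with a match, NOTCH2 and ADAM17 were lower and ADAM10 was at a change of 0.11. NOTCH1, which was also lower, had no match in its 1638-base 3′ UTR, and RBPJ, which was higher, had none in 3916 bases. Of the 40 other pathway genes listed, 6 held a match. Of these, APH1B (1 match) was lower, and POFUT1 (0.02), KAT2B (-0.18), CDK8 (0.00), KDM5A (-0.13, with 3 matches) and CTBP2 (0.07) were not past the threshold. Of 9946 protein-coding genes listed with a 3′ UTR, 78.6% held no match, 16.2% held 1 and 5.21% held 2 or more. Their median changes were -0.03, 0.05 and 0.07, and the median transcript GC was 50.3%, 43.3% and 41.6%, so genes with matches were also poorer in GC. The miR-181 levels were not analysed here, and seed letters mark a possible pairing only. Only full seed matches in the canonical 3′ UTR were searched, so other kinds of site and other isoforms are not covered.

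**Figure D4:**
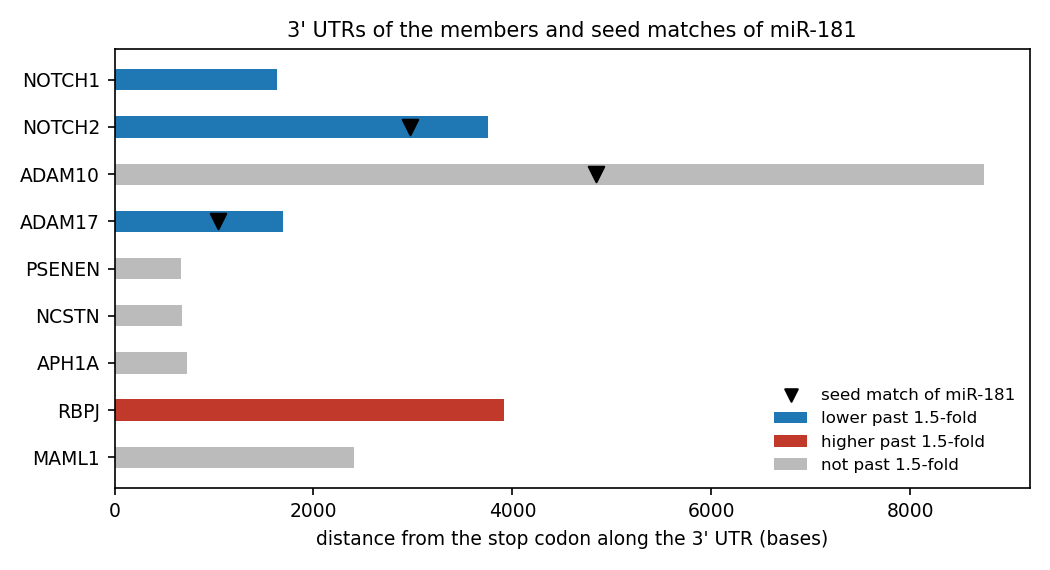
Length of the 3′ UTR of each member in bases (bars, horizontal axis, counted from the stop codon), in blue for members lower past 1.5-fold, red for higher and grey for neither, with black triangles at the miR-181 seed matches. Matches stand in NOTCH2, ADAM10 and ADAM17, that is in 2 blue bars and in the longest grey bar.

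The promoters of the 3 members that fell are shown because these genes moved the same way. Each is the 250 bases before the start site, read 5′ to 3′ on the gene's strand from RefSeq (GRCh38.p14), with every GC box (GGGCGG or its reverse CCGCCC) and every RBPJ core (TGGGAA or its reverse TTCCCA) in capitals.
NOTCH1 promoter, chr9:136546049-136546298, minus strand: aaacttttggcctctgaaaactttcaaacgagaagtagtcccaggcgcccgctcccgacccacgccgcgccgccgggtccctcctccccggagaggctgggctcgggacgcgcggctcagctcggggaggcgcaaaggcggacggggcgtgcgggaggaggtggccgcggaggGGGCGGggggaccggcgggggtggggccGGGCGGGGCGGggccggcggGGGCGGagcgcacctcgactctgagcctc
NOTCH2 promoter, chr1:120069663-120069912, minus strand: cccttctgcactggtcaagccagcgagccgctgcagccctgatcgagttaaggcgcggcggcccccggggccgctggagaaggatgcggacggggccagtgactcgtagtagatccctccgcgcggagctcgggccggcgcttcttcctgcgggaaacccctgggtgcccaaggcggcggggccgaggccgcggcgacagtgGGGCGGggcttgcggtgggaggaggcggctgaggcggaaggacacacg
ADAM17 promoter, chr2:9555831-9556080, minus strand: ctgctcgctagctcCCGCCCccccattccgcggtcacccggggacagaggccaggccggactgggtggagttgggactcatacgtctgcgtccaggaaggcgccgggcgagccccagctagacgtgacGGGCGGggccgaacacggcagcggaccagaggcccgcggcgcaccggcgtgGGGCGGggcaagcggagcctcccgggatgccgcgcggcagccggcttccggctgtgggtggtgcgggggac

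All capitals in these stretches belong to GC boxes, 4 in NOTCH1 (a pair of them overlapping), 1 in NOTCH2 and 3 in ADAM17. The RBPJ core was found in none of these windows and, among the 9 members, only in that of PSENEN. Over 35116 RefSeq promoters of this length, 42.6% held a GC box and 20.8% an RBPJ core. GC content was 76.0% in NOTCH1, 72.8% in NOTCH2 and 75.6% in ADAM17, against a median of 58.0% over all promoters. The other 6 members were above that median too, from 61.2% in PSENEN to 69.6% in RBPJ, and 7 of the 9 members held at least 1 GC box, PSENEN and NCSTN being the exceptions.

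The changes of the members were also computed with smaller pseudocounts, other scalings of the libraries and GC subtraction. NOTCH2 and ADAM17 were past 1.5-fold under all 6 of these, and NOTCH1 and RBPJ under 5 each. Smaller pseudocounts can only enlarge a change, so they could not remove a call. Median centring moved NOTCH1 only from -0.66 to -0.65, and rescaling put it at -0.86. Quantile normalization put NOTCH1 at -0.63 and RBPJ at 0.69, and GC subtraction put them at -0.40 and 0.51. The tally is therefore a weak check. PSENEN, NCSTN and APH1A were past it under none, nor were ADAM10 and MAML1. The lowest change of NOTCH2 was -1.11, with a pseudocount of 0.01, and the highest of RBPJ 0.75, with the same.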

How the data were processed

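RNA of NB4 cells (sh-CRNDE and sh-Control, 1 library each, grouped by their labels) was sequenced from TruSeq RNA libraries on an Illumina MiSeq. According to the submitters' processing notes the authors used fastp 0.20.0, HISAT2 2.0.4 and StringTie 1.2.3 on GRCh38, and the methods also refer to Ballgown. The annotation release is not given in the sources used here. The deposited values are FPKM for each gene, computed by the authors, and every listed gene is above 0.5 FPKM in at least 1 library. Read counts cannot be had from them, and low values are not multiples of a smallest step.

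Changes were taken as log2(FPKM + 1), which understates those of low genes, with no further scaling, filter or test. Genes were matched by Ensembl identifier, and 11508 of 11619 were found in GENCODE release 44, which gave coordinates, GC content and 3′ UTRs of canonical transcripts. Promoters and miRNAs came from RefSeq (GRCh38.p14). Primer sequences came from the study's supplementary tables. Shared sequence was counted as 50-base windows of a canonical transcript found in transcripts of other genes. Named genes were CRNDE, the members, listed genes of the pathway, target and NOTCH2 copy lists, the 3 genes nearest to each receptor, overlapping genes and markers. The members and lists were chosen with earlier results of these data known. The lists of protease partners and secretase regulators were added after the members' values were seen. Alternatives were pseudocounts of 0.1 and 0.01, median centring, quantile normalization, rescaling to an equal sum without mitochondrial, rRNA and small RNA genes, subtraction of the median change in 20 GC bins, a 2-fold threshold and a floor of 1 FPKM in both libraries. Scripts were tested on simulated data and run in Python 3.11.15 with numpy 2.4.6, pandas 2.3.3 and matplotlib 3.10.9.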

Additional observations from a re-analysis of the deposited data

How the results depend on the processing

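With 1 library per group and unknown depth, the alternatives below show the effect of the arithmetic and not the spread between samples. Of the 9 members, NOTCH2 (between -1.11 and -0.89) and ADAM17 (between -0.73 and -0.61) stayed past 1.5-fold under each of the 6 other scalings and pseudocounts. NOTCH1 (-0.40) and RBPJ (0.51) did not with GC subtraction and did with the other 5, and the cause of the relation with GC was not tested. Among those 5, the smaller pseudocounts could only enlarge a change, so they could not remove a call. With GC subtraction 0 members were higher. At a 2-fold threshold 0 members were lower and 0 higher, and 4 of the other pathway and target genes passed in place of 10. The count over all genes, 2000 as reported, was 3301 with a pseudocount of 0.1, 3481 with 0.01, 3133 after rescaling to an equal sum without mitochondrial, rRNA and small RNA genes, 774 at 2-fold and 1239 where both libraries had to reach 1 FPKM. The split of calls into higher and lower moved by under 10 percentage points throughout. Among low genes, MAML3, FBXW7 and MIB2 passed 1.5-fold with either smaller pseudocount and after rescaling, and MAML3 also with GC subtraction (0.60). The signs of ADAM10 and MAML1, whose changes were near 0, turned with GC subtraction. No paired analysis was possible because each group holds 1 library.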

Other observations

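The partners of the proteases were looked at in lists drawn up after the members' values were seen. FRMD8, which holds ADAM17 and the iRhom proteins at the cell surface, fell from 4.82 to 2.53 FPKM between sh-Control and sh-CRNDE (-0.72), next to the lower level of ADAM17 itself. With GC subtraction FRMD8 was at -0.50, under the 1.5-fold threshold. RHBDF2, which encodes iRhom2, was at 0.837 and 0.441 FPKM (-0.35), and RHBDF1 was not listed. Of the tetraspanins that escort ADAM10, TSPAN14 was at 2.33 and 2.92 FPKM and TSPAN17 at 2.01 and 1.13 FPKM (-0.50), neither past the threshold. The inhibitors TIMP1 (18.1 and 18.3 FPKM), TIMP2 and RECK (1.05 and 1.02 FPKM) had changes between -0.02 and 0.02. The 4 other ADAM genes listed, ADAM8 (0.570 and 0.296 FPKM, -0.28), ADAM9 (3.97 and 3.96 FPKM), ADAM15 (20.6 and 16.5 FPKM) and ADAM22 (0.893 and 0.770 FPKM), did not pass. The calls of the low genes depended on the pseudocount. With 0.1 in place of 1, RHBDF2 was at -0.79, TSPAN17 at -0.78 and ADAM8 at -0.76, and all 3 were past 1.5-fold with 0.01 and after rescaling as well. With GC subtraction they were at -0.09, -0.32 and -0.02.

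Of 5 listed genes that regulate γ-secretase or share its substrates, TMED10, a cargo receptor of the early secretory pathway that binds the complex, rose from 4.02 to 10.1 FPKM, a change of 1.15 that was 0.99 with GC subtraction. The secretase substrate APLP2 (29.9 and 32.2 FPKM) and GSAP (1.51 and 1.60 FPKM) were close to level, and APP was not listed. BACE1, at 0.982 and 0.635 FPKM (-0.28), was past 1.5-fold with a pseudocount of 0.01 only (-0.62).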
